A study of Mus musculus with 7 samples.

Results

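The Rab GTPases and the SNARE secretion machinery are the genes that move, dock and fuse membrane vesicles. Genes were taken by symbol: the families Rab, Stx, Stxbp, Vamp, Snap, Syt and Sytl followed by a digit, and Unc13a to Unc13d. This gave 127 of the 18193 genes that probe sets with a single symbol represent, measured by 287 probe sets. Of these, 109 had enough signal to be tested and 18 did not. The rule uses no expression value.

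The cells came from bone marrow of C57Bl/6J mice, wild type and 6 to 12 weeks old, and were isolated by flow cytometry in samples of 1800 to 10000 cells. Their RNA was amplified and hybridised to Affymetrix Mouse Genome 430 2.0 arrays, 7 in all. Both populations were CD45-negative and lineage-negative. The first was CD54-positive, CD31-negative and BP1-positive, is labelled bone marrow stromal cells, has 4 arrays and is called stromal here. The second was CD54-negative and CD31-positive, is labelled bone marrow endothelial cells, has 3 arrays and is called CD31+ here.

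The label of the stromal population was borne out by its markers, whereas that of the CD31+ population was only partly so. The 10 reticular stroma markers, such as Cxcl12 and Lepr, averaged 13.02 to 13.18 on the stromal arrays and 5.38 to 6.6 on the CD31+ arrays. Among the endothelial markers, Pecam1, Kdr and Plvap were lower on the stromal arrays, but 5 of the 12 (Cdh5, Emcn, Tek, Tie1 and Sox17) had CD31+ means below those arrays' 40th percentiles, which were 5.68 to 5.79. The 10 megakaryocyte and platelet markers on the array, such as Pf4 and Itga2b, averaged 5.82 to 8.40 on the stromal arrays and 13.42 to 13.80 on the CD31+ arrays, and all 10 were called lower on the stromal arrays. Pan-leukocyte markers averaged 5.67 to 7.56 on the stromal arrays and 10.15 to 10.83 on the CD31+ arrays, with 9 of 10 called lower on the stromal arrays. None of the 10 megakaryocyte and platelet markers had a mean below the 40th percentiles in either population. However, Ppbp and Clec1b lay below them on stromal 1 to 3, and stromal 4 (10.19 and 8.72) raised their stromal means. Gp6 lay below on stromal 1 and Gp1bb on stromal 3. The part of these other cells in the results below was not tested. In sorted bulk samples, fewer cells of a type and less RNA per cell cannot be told apart.

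Rab proteins are small GTPases that sit on a particular membrane when bound to GTP and recruit effectors that carry, tether or dock the vesicle. SNARE proteins then zip together across the membranes: a VAMP on the vesicle pairs with a syntaxin and a SNAP protein on the target. Syntaxin-binding proteins of the Sec1/Munc18 family guide the assembly, Unc13 proteins prime the vesicle, and some synaptotagmins couple fusion to calcium. In megakaryocytes and platelets this machinery is known for the release of granules, with RAB27, UNC13D, STX11, STXBP2 and SNAP23 among its characterised parts. In stromal cells it is known for the constitutive export of matrix and cytokines and for the recycling of surface receptors.

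Promoter windows, from 250 bases before to 50 after the gene start, were read from RefSeq (GRCm38.p6) for 101 of the 127 genes, 130 windows in all. Shown are the windows of 2 genes among those furthest below the CD31+ level on the stromal arrays, Stx11 and Sytl4, and of 3 among those furthest above it, Rab34, Rab23 and Vamp4. They lie at chr10:12964210-12964509 (minus strand), chrX:133981763-133982062 (minus strand), chr11:78188177-78188476 (plus strand), chr1:33719646-33719945 (plus strand) and chr1:162570265-162570564 (plus strand). Capitals mark any match, on either strand, to the 4 motifs searched: the letters AGATAA of the GATA motif, CCGGAA of the ETS motif, TGANTCA of the AP-1/NF-E2 core and CACGTG of the E-box.
Stx11: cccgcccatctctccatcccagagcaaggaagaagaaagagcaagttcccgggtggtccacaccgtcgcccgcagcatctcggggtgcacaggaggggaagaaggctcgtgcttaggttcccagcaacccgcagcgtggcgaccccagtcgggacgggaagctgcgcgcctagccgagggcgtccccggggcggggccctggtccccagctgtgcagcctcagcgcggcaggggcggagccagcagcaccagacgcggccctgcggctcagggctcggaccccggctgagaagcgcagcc
Sytl4: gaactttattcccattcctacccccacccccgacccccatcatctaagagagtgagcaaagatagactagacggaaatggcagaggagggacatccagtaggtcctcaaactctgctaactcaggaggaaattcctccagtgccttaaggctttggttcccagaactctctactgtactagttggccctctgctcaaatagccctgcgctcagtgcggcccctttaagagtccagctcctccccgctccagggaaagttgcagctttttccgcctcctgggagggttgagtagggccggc
Rab34: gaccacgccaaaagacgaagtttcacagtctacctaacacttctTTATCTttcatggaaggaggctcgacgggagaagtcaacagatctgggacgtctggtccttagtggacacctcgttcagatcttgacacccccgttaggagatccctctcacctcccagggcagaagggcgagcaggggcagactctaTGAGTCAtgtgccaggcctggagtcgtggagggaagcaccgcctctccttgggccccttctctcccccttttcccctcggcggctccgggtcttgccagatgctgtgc
Rab23: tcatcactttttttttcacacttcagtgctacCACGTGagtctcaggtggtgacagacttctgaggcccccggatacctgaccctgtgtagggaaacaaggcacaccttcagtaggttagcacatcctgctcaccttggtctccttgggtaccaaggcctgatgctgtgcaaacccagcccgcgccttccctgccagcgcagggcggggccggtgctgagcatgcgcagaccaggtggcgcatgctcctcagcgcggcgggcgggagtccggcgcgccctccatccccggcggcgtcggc
Vamp4: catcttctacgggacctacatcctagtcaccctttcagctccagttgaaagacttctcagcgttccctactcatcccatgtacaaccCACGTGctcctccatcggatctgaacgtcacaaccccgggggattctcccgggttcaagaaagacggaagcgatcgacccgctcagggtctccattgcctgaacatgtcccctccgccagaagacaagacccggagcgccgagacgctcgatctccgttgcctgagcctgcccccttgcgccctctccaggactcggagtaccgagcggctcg

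The Stx11 and Sytl4 windows held none of these letters. The printed Rab34 window held a GATA and an AP-1/NF-E2 core match, and the printed Rab23 and Vamp4 windows held an E-box each. These 3 genes each had another window that was not printed. That of Rab34 held an ETS match, and those of Rab23 and Vamp4 held no match. Printing favoured windows with a match, so the printed windows do not compare the genes. Over all windows of the genes studied, the E-box was present in 17 of 130 (13.1%), against 7.15% of 32851 RefSeq windows. It occurred in 9 of the 37 windows of genes called higher in the stromal population (24.3%), in 2 of the 18 of genes called lower (11.1%) and in 5 of the 60 of genes that were not called (8.33%). Several windows can belong to 1 gene, and the 37 belong to 28 genes. The ETS letters were in 22.3% of the windows against 14.9% of all windows, and the GATA letters in 3.08% against 11.2%. The AP-1/NF-E2 core was in 4.62% against 7.81%. The windows were also richer in G and C, with a median of 61.6% against 52.7%. These matches describe letters in a window and show no binding.

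Values below are log2 expression values, and differences are stromal minus CD31+ on that scale. A gene was called higher or lower when limma's adjusted p was under 0.05 and the difference was at least 1. Of the 109 genes tested, 55 were called (50.5%), where 47% of all 13995 genes tested were called. On the stromal arrays 29 were higher (26.6%, against 30.9% of all genes) and 26 were lower (23.9%, against 16.1% of all genes), and 54 were not called. The arrays of the populations did not overlap for 77 genes (70.6%, against 68.4% of all genes), of which 33 lay higher (30.3%, against 35.7%) and 44 lower (40.4%, against 32.7%) on the stromal arrays. The share of genes called was thus close to that of all genes. The median difference was -0.28, against 0.19 over all genes, and the median absolute difference was 1.02, against 0.98.

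The balance of directions depended on scaling. Higher genes made up 52.7% of the calls with the deposited values (65.7% over all genes), 35.8% after a second quantile normalization (52% over all genes) and 35.3% after cyclic loess (57.8% over all genes). These settings moved the median of all genes by -0.31 and -0.23, so the members' balance moved with that of the whole array. The tilt reached single role groups. Under those 2 settings the syntaxins had 2 higher with 3 and 4 lower, in place of 4 and 2, and the early endosome Rabs 1 higher with 3 lower, in place of 1 and 1. The Rabs of the endoplasmic reticulum and Golgi had 2 higher with 5 lower under both, in place of 3 and 3. Gene by gene, the values on arrays of the same population were close, with correlations over the genes of at least 0.977 among stromal arrays and 0.889 among CD31+ arrays, and at most 0.593 between populations. CD31+ 2 and CD31+ 3 had a higher mean of the spiked-in hybridisation controls (11.33 and 11.37) than the other 5 arrays (9.51 to 9.75). A fit with this split as a block, and a fit of those 5 arrays alone, both set CD31+ 1 against the stromal arrays. Of the 29 higher genes the block kept 21 and the 5 arrays 25, and of the 26 lower genes they kept 22 and 24, with none turned round. Without stromal 4, which had the highest megakaryocyte mean of its population, and CD31+ 2, which had the highest B lineage mean of its own (9.02), 24 and 26 kept their call.

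**Figure D1:**
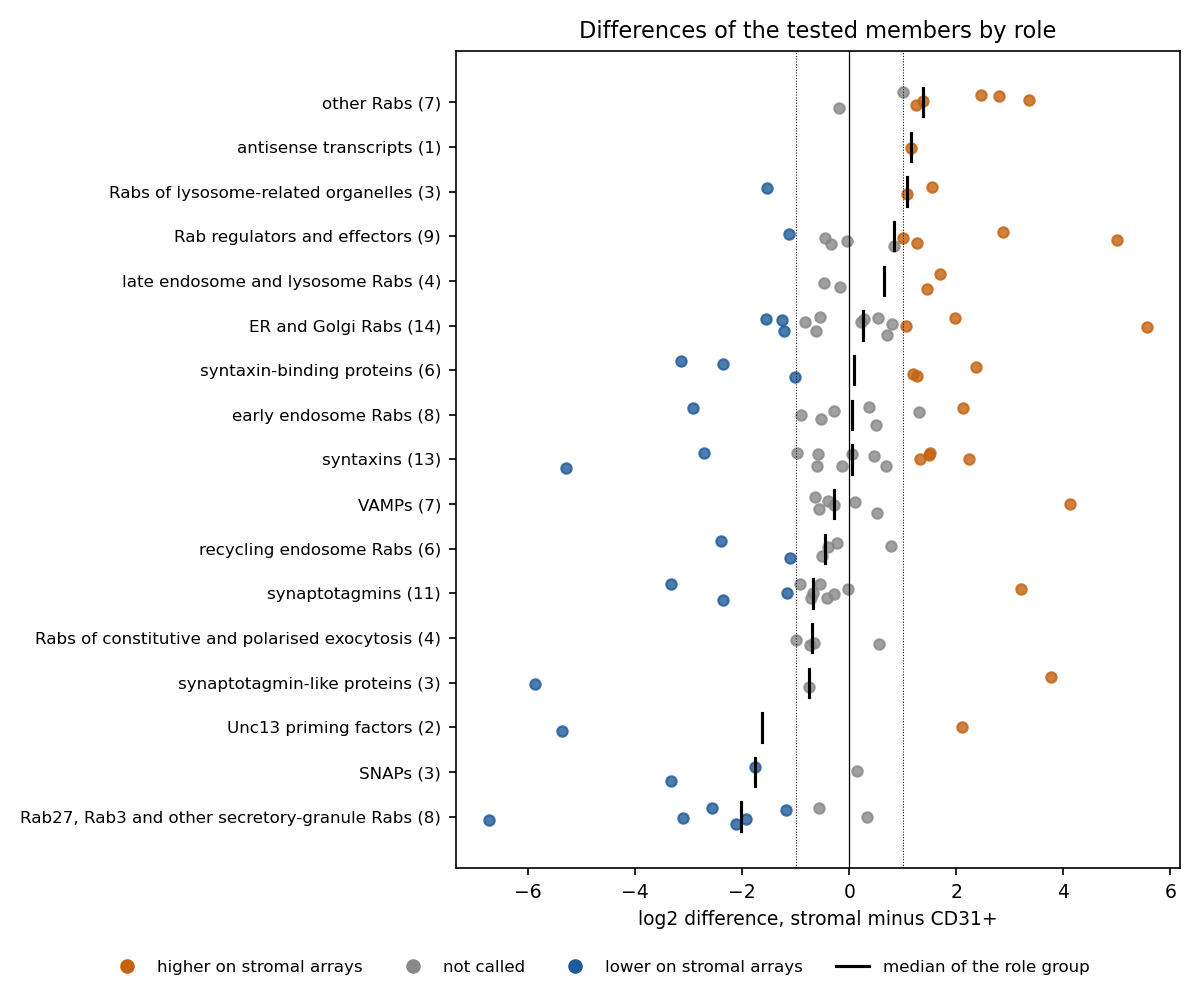
Log2 difference, stromal minus CD31+, of each of the 109 genes tested, grouped by role down the page. Each point is 1 gene, coloured by its call, and a bar marks the median of the role group. The secretory-granule Rabs have a median of -2.03 and the group of other Rabs a median of 1.37.

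Rabs of regulated secretion were mostly lower on the stromal arrays. Rab27, Rab3, Rab26, Rab37 and Rab44 bring secretory granules and lysosome-related granules to the plasma membrane. Of 9 such genes 8 were tested, 6 were lower on the stromal arrays, 0 were higher and 2 were not called (all genes: 30.9% higher, 16.1% lower). With probe sets averaged per gene, 4 of 7 were lower and 0 higher. Under the hybridisation-control block 3 of the 6 remained (Rab27a, Rab27b and Rab37), and in the 5 arrays alone 5 remained.

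Rab27b, the Rab that carries dense granules of platelets, lay at 5.09, 5.14, 4.89 and 4.97 on stromal 1 to 4 and at 11.93, 11.29 and 12.08 on CD31+ 1 to 3. All stromal arrays were below their 40th percentiles and every CD31+ array was far above, so the difference of -6.74 (SE 0.224, limma adjusted p = 2.54e-07) is given without a fold. Stromal 4 had the highest megakaryocyte marker mean of the stromal arrays (8.40). Genes called lower differed in whether they followed this order. Stromal 4 was also the highest stromal array for Sytl4 (7.67), Snap23 (9.26), Rab22a (9.79), Stxbp2 and Snap29. It was not the highest for Rab27b (4.97), Unc13d, Stx11, Stxbp5 or Stx2, and was the lowest for Rab37 and Rab11a. For Rab27b the stromal order was read from dim values and differed between probe sets. Stromal 4 was the highest stromal array on those where it lay at 4.07 and 4.89, and the lowest on that where it lay at 3.34. The part of megakaryocyte RNA in the stromal values was not tested. Rab27a, the paralogue of Rab27b, which moves lytic granules and melanosomes, lay at 6.30, 5.64, 4.77 and 4.50 on the stromal arrays and at 8.33, 7.47 and 7.79 on the CD31+ arrays. The populations did not overlap (difference -2.56, SE 0.442, adjusted p = 0.00146 in limma), and the stromal mean was again below the 40th percentiles. Within the stromal arrays, stromal 1 and 2 were above stromal 3 and 4, as they were for the means of the neutrophil (9.82, 9.68, 7.67 and 8.28), pan-leukocyte (7.47, 7.56, 5.67 and 6.62) and monocyte and macrophage markers (7.27, 7.09, 6.54 and 6.74). The part of RNA from any of these cells in this was not tested.

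Rab37, a Rab of secretory granules in mast cells and other blood cells, lay at 6.30, 6.94, 6.44 and 6.28 on the stromal arrays and at 9.21, 9.71 and 9.87 on the CD31+ arrays. This was an 8.6-fold lower level (difference -3.10, adjusted p = 1.75e-05 in limma) with no overlap. Rab3d, found on secretory granules of many cell types, had values of 9.32, 9.72, 9.92 and 9.73 on the stromal arrays and 10.49, 11.14 and 10.93 on the CD31+ arrays. The groups lay close without overlapping (difference -1.18, adjusted p = 0.00249). With CD31+ 1 alone on the CD31+ side the difference was -0.82, which ended the call. Averaging the gene's probe sets (-0.55) also ended it. So did leaving out probe sets with names ending in _s_at, _x_at or _a_at (-0.61, adjusted p = 0.105 in limma).

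Further genes, here and below, are named outside the rule for named genes, after their values were seen. Rab26 and Rab44 were the other lower ones, at -2.12 and -1.94. Rab26 was uneven on the CD31+ arrays (8.42, 6.76 and 10.12), and its adjusted p was 0.127 under the block. Rab44 also lost its call there, with an adjusted p of 0.0817. Rab3a and Rab3b, the Rab3 forms best known from synaptic vesicles and endocrine granules, were not called (0.33 and -0.56), and Rab3c was not tested.

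The synaptotagmin-like proteins are effectors of Rab27 that hold granules at the plasma membrane, and their members went opposite ways. Sytl4, also called granuphilin and an effector of RAB27 in platelets and endocrine cells, lay at 6.61, 7.21, 6.73 and 7.67 on the stromal arrays and at 13.05, 12.92 and 12.80 on the CD31+ arrays. No arrays came near each other, and the level was 58.6-fold lower on the stromal arrays (difference -5.87, SE 0.275, limma adjusted p = 1.05e-06). The mean of its 2 probe sets gave -3.33, as the other probe set was dim on every array. Sytl2, an effector of Rab27 in epithelial and cytotoxic cells, lay at 8.65, 8.83, 8.74 and 8.86 on the stromal arrays and at 4.80, 4.53 and 5.70 on the CD31+ arrays. It was higher on every stromal array (difference 3.76, SE 0.279, adjusted p = 1.25e-05 in limma), with a CD31+ mean below the 40th percentiles. Sytl1 was not called (-0.76).

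Unc13 proteins prime docked vesicles for fusion, and they too divided. Unc13d, the Munc13-4 protein that primes granules in platelets and cytotoxic cells, lay at 6.56, 6.78, 6.35 and 6.47 on the stromal arrays and at 11.95, 12.24 and 11.53 on the CD31+ arrays. Every stromal array was far below every CD31+ array, by 41.3-fold in the mean (difference -5.37, SE 0.219, limma adjusted p = 5.37e-07). Unc13b, the Munc13-2 form, lay at 8.13, 7.46, 7.18 and 7.42 on the stromal arrays and at 5.33, 5.49 and 5.49 on the CD31+ arrays. It was higher on all stromal arrays (difference 2.11, adjusted p = 0.000159 in limma) from a CD31+ level below the 40th percentiles. Its second probe set did not show this, and the mean of both was 0.78, under the size required for a call. Unc13a and Unc13c, the forms best known from neurons, were not tested.

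**Figure D2:**
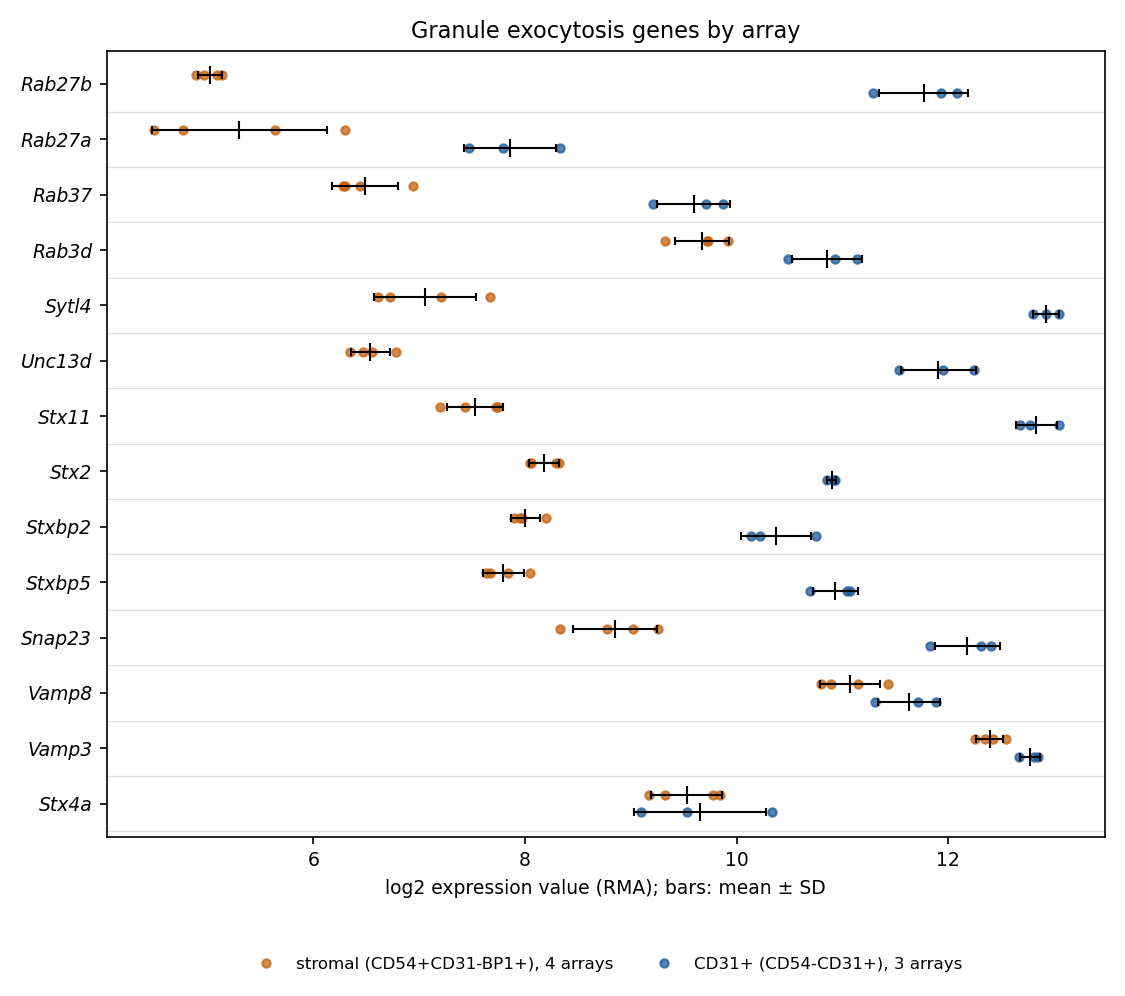
Log2 expression values of granule-release genes on each array, with stromal arrays drawn above CD31+ arrays for each gene, and the mean ± SD as a bar. Rab27b, Sytl4, Unc13d and Stx11 stand at least 5.30 lower on the stromal arrays, whereas Vamp8 and Vamp3 overlap or nearly touch.

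Syntaxins are the target-membrane SNAREs. Of 14 genes 13 were tested, with 4 higher, 2 lower and 7 not called (all genes: 30.9% higher, 16.1% lower). The 2 lower ones act at the plasma membrane. Stx11, the syntaxin of platelet granule release and of cytotoxic lymphocytes, lay at 7.20, 7.75, 7.43 and 7.73 on the stromal arrays and at 13.05, 12.68 and 12.77 on the CD31+ arrays. The gap was many times the spread within either population, and the level was 39.5-fold lower on the stromal arrays (difference -5.30, SE 0.206, limma adjusted p = 4.4e-07). Stx2 lay at 8.06, 8.32, 8.05 and 8.29 on the stromal arrays and at 10.92, 10.93 and 10.85 on the CD31+ arrays. It was likewise apart (difference -2.72, adjusted p = 3.81e-06 in limma), 6.6-fold lower.

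The largest syntaxin difference in the other direction was that of Stx1a, the plasma membrane syntaxin of neurons and endocrine cells. Its values were 10.16, 9.29, 9.76 and 9.71 on the stromal arrays and 7.06, 7.87 and 7.56 on the CD31+ arrays. The groups did not overlap, and the level was 4.7-fold higher on the stromal arrays (difference 2.23, adjusted p = 0.000215 in limma). Leaving out probe sets with names ending in _s_at, _x_at or _a_at gave 1.18. Stx18, a syntaxin of the endoplasmic reticulum, lay at 10.00, 10.18, 9.93 and 10.44 on the stromal arrays and at 7.39, 9.05 and 9.46 on the CD31+ arrays. Its call (1.5, adjusted p = 0.0182 in limma) rested on the low CD31+ 1. Without that array the difference was 0.88, and with it as the only CD31+ array 2.75. The mean of its probe sets (0.60, adjusted p = 0.338 in limma), the second quantile normalization (1.04, adjusted p = 0.0507) and cyclic loess (0.95) also ended the call.

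Stx5a and Stx6, syntaxins of the Golgi, were higher as well (1.33 and 1.49), although Stx5a had CD31+ values of 8.69, 8.52 and 10.22, the last close to the lowest stromal value of 10.33. Stx6 lost its call with the block (0.95, limma adjusted p = 0.169) and in the 5 arrays, and Stx5a lost it without stromal 4 and CD31+ 2 (1.07, adjusted p = 0.0723). Stx4a, the main plasma membrane syntaxin of non-neuronal cells, was not called. Its values of 9.84, 9.32, 9.17 and 9.78 on the stromal arrays and 9.53, 9.10 and 10.33 on the CD31+ arrays were interleaved (difference -0.13, 95% interval -0.86 to 0.61). Stx3, a syntaxin of apical and granule exocytosis, spread widely on the CD31+ arrays (7.22, 9.02 and 5.89) around stromal values of 6.55, 7.34, 6.96 and 6.29. Its difference of -0.59 (95% interval -2.09 to 0.90) passed the threshold only without CD31+ 3 (-1.34, adjusted p = 0.0482 in limma) and turned to 0.23 without CD31+ 2. Stx7 and Stx8, endosomal syntaxins, were not called (0.05 and -0.61), nor were Stx12 (0.68), Stx16 (-0.98) and Stx17 (0.47). Stx16 lay just under the required size and was called lower with the hybridisation-control block (-1.03, limma adjusted p = 0.0385), in the 5 arrays and without stromal 4 and CD31+ 2 (-1.17). Stx17 was called higher in the 5 arrays (1.31, limma adjusted p = 0.0145), though not with the block (0.0572).

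All 6 syntaxin-binding genes tested were called, 3 lower and 3 higher (all genes: 47% called). This depended on the setting. The hybridisation-control block left 1 higher and 3 lower, either rescaling 2 higher and 3 lower, and averaged probe sets 1 higher and 2 lower of 5. Stxbp2, the Munc18-2 protein that chaperones syntaxin 11 in granule release, lay at 7.95, 7.90, 7.97 and 8.20 on the stromal arrays and at 10.14, 10.75 and 10.22 on the CD31+ arrays. It was lower on every stromal array, by 5.14-fold (difference -2.36, SE 0.205, limma adjusted p = 3.04e-05). The other probe sets of Stxbp2 gave larger differences, -3.18 and -4.84. Stxbp5, or tomosyn, which binds syntaxins in competition with VAMPs, lay at 8.05, 7.63, 7.67 and 7.84 on the stromal arrays and at 11.04, 11.07 and 10.69 on the CD31+ arrays. This 8.8-fold lower level (difference -3.14, SE 0.190, limma adjusted p = 3.91e-06) also left a wide gap. Stxbp5l, its paralogue, was only just called (-1.02).

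Stxbp6, or amisyn, lay at 8.67, 8.77, 8.68 and 8.44 on the stromal arrays and at 6.65, 6.46 and 5.71 on the CD31+ arrays. It stood 5.17-fold higher on the stromal arrays (difference 2.37, adjusted p = 9.33e-05 in limma) with no overlap. Stxbp3, the Munc18 form that pairs with syntaxin 4, was higher by 1.19, with an adjusted p of 0.131 in limma under the hybridisation-control block. Stxbp4 was higher by 1.27 (7.56, 7.73, 7.61 and 7.02 on the stromal arrays, 6.34, 5.48 and 6.81 on the CD31+ arrays). The Stxbp4 call was lost without CD31+ 2 (0.90), with the mean of its probe sets (0.60) and under the block (1.14, adjusted p = 0.0965 in limma).

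SNAP proteins give the remaining helices of the fusion complex. Snap23, the form used outside neurons and in platelets, lay at 8.33, 9.02, 8.78 and 9.26 on the stromal arrays and at 12.40, 12.31 and 11.83 on the CD31+ arrays. No arrays overlapped, and the level was 10.1-fold lower on the stromal arrays (difference -3.33, SE 0.265, limma adjusted p = 1.85e-05). Snap29, which acts in autophagosome fusion and other pathways, lay at 7.54, 7.78, 7.42 and 7.97 on the stromal arrays and at 9.66, 8.78 and 9.90 on the CD31+ arrays. It too was lower throughout (difference -1.77, adjusted p = 0.00119 in limma), 3.41-fold. Snap47 was not called (0.15, 95% interval -0.27 to 0.56), and Snap25, the neuronal form, was not tested. Snap91, taken in by its symbol, encodes a clathrin assembly protein and was also not tested.

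Of the VAMPs on the vesicle side a single gene was called. Among 7 genes tested, 1 was higher, 0 were lower and 6 were not called (all genes: 30.9% higher, 16.1% lower). Vamp8, the VAMP of platelet and other granule release, lay at 10.80, 11.15, 11.43 and 10.89 on the stromal arrays and at 11.31, 11.71 and 11.88 on the CD31+ arrays. The lowest CD31+ array fell below the highest stromal one (difference -0.57, 95% interval -1.09 to -0.04, limma adjusted p = 0.0534). Vamp3, or cellubrevin, the VAMP of recycling endosomes, lay at 12.25, 12.55, 12.42 and 12.35 on the stromal arrays and at 12.85, 12.81 and 12.67 on the CD31+ arrays. These did not overlap but lay close (difference -0.39, 95% interval -0.77 to -0.01, limma adjusted p = 0.0631). The Vamp8 interval reaches past the size required for a call, and a missed threshold does not show equal levels.

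Vamp7, a VAMP of lysosomal exocytosis, lay at 7.36, 8.48, 8.42 and 7.48 on the stromal arrays and at 7.16, 8.20 and 8.11 on the CD31+ arrays. Both populations held low and high arrays, and the difference of 0.11 (95% interval -0.77 to 0.99) turned negative under either scaling alternative. Vamp2, the synaptobrevin also found in endocrine and fat cells, differed by 0.52 (95% interval -0.13 to 1.17), with CD31+ 3 (9.35) above all stromal arrays. The difference turned to -0.10 after the second quantile normalization and to -0.11 after cyclic loess. Vamp1 and Vamp5 were not called (-0.28 and -0.64).

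Vamp4, a VAMP of the trans-Golgi network, lay at 9.26, 10.11, 10.21 and 10.10 on the stromal arrays and at 6.79, 6.82 and 3.79 on the CD31+ arrays. It was higher on every stromal array (difference 4.12, SE 0.707, adjusted p = 0.00142 in limma), with CD31+ 3 far below CD31+ 1 and 2. Its probe sets did not give 1 size: the others differed by 1.54 and 0.18, and their mean by 1.95.

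Synaptotagmins include the calcium sensors of fusion, best known from neurons and endocrine cells, but not every member is such a sensor. Of 16 genes 11 were tested, 3 were lower, 1 was higher and 7 were not called (all genes: 30.9% higher, 16.1% lower). Syt13 lay at 4.90, 4.90, 4.92 and 4.98 on the stromal arrays and at 9.16, 7.55 and 8.04 on the CD31+ arrays. The stromal values sat below the 40th percentiles, and the difference of -3.33 (adjusted p = 8.86e-05 in limma) is given without a fold. Syt11 lay at 8.09, 8.67, 8.45 and 8.31 on the stromal arrays and at 10.39, 10.96 and 10.88 on the CD31+ arrays. It was apart with signal in both populations, 5.15-fold lower (difference -2.36, adjusted p = 4.74e-05 in limma).

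Syt9 was the only synaptotagmin tested that was called higher. Its values were 7.66, 8.21, 7.82 and 7.79 on the stromal arrays and 5.02, 4.40 and 4.58 on the CD31+ arrays, below the 40th percentiles. The difference was 3.20 (SE 0.221, limma adjusted p = 8.1e-06). Syt5 was lower by 1.16, from a stromal mean also below the 40th percentiles. Syt1, the main sensor of synaptic release, and Syt7, a sensor of lysosome and granule exocytosis, were not called (-0.41 and -0.67), and the other 5 not called lay between -0.93 and -0.02. Of these, Syt3 (-0.93) was called lower with the block (-1.48, limma adjusted p = 0.00824), in the 5 arrays and without stromal 4 and CD31+ 2 (-1.30).

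The Rabs of lysosome-related organelles, which build melanosomes and platelet dense granules, were all called but in opposite directions (all genes: 47% called). Rab38 lay at 7.30, 7.62, 7.34 and 7.42 on the stromal arrays and at 8.39, 9.83 and 8.67 on the CD31+ arrays. It was lower without overlap (difference -1.54, adjusted p = 0.00417 in limma). With CD31+ 1 alone on the CD31+ side the difference was -0.97, which ended the call (limma adjusted p = 0.0886 with the block and 0.00536 in the 5 arrays).

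Its close relative Rab32 lay at 9.01, 8.85, 8.81 and 9.62 on the stromal arrays and at 7.64, 8.59 and 6.38 on the CD31+ arrays. It was called higher (1.54, adjusted p = 0.0204 in limma), with CD31+ 2 close to the stromal values. The call ended without stromal 4 (1.35, adjusted p = 0.0542 in limma), without CD31+ 3 (0.96), under the block (1.44, adjusted p = 0.144) and under both scaling alternatives (1.04 and 0.89). Rab29 lay at 9.69, 9.67, 9.67 and 9.81 on the stromal arrays and at 8.85, 8.14 and 8.93 on the CD31+ arrays. This small higher value (1.07, adjusted p = 0.00365 in limma) fell under the required size without CD31+ 2 (0.82), with CD31+ 1 alone (0.87), with array weights (0.99) and after the second quantile normalization (0.49) or cyclic loess (0.48).

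None of the 4 Rabs of constitutive and polarised exocytosis was called by limma on all 7 arrays with the probe set used. Still, 3 had an adjusted p under 0.05 at a difference below 1: Rab8b (-0.66), Rab10 (-0.74) and Rab13 (-0.99). Another probe set of Rab10 was called lower in a fit of all probe sets (-2.11, limma adjusted p = 0.000107), and the remaining probe set gave -0.87. With probe sets averaged per gene, or under either rescaling, 1 of the 4 genes was called lower. With CD31+ 1 alone on the CD31+ side, Rab10 and Rab13 were called lower, at -1.06 (limma adjusted p = 0.0131 with the block) and -1.15 (0.0115), and Rab13 also without stromal 4 and CD31+ 2 (-1.17). Rab8a, which carries vesicles from the Golgi to the surface and the cilium, lay at 9.09, 9.12, 8.92 and 9.19 on the stromal arrays and at 8.48, 9.14 and 7.96 on the CD31+ arrays. CD31+ 2 was among the stromal values, and the difference of 0.56 (95% interval -0.08 to 1.19) turned slightly negative after rescaling (-0.10 and -0.09) and with the mean of its probe sets (-0.12).

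Early endosome Rabs sort newly internalised cargo. Of 9 genes 8 were tested, 1 was lower, 1 was higher and 6 were not called (all genes: 30.9% higher, 16.1% lower). Rab22a lay at 8.99, 9.52, 9.19 and 9.79 on the stromal arrays and at 12.35, 12.45 and 12.12 on the CD31+ arrays. It was 7.63-fold lower with a clear gap (difference -2.93, SE 0.232, limma adjusted p = 1.79e-05), and the mean of its 4 probe sets gave -1.32. Rab31, its nearest relative in the early endosome and trans-Golgi, lay at 11.12, 11.91, 11.81 and 12.07 on the stromal arrays and at 9.77, 10.12 and 8.90 on the CD31+ arrays. It went the other way, 4.38-fold higher (difference 2.13, adjusted p = 0.00101 in limma), though the mean of its probe sets was 0.74.

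Rab5a, the regulator of early endosome fusion, lay at 11.62, 11.94, 11.81 and 12.23 on the stromal arrays and at 10.88, 11.81 and 11.52 on the CD31+ arrays. The populations overlapped (difference 0.50, 95% interval -0.11 to 1.1). With CD31+ 1 alone the difference was 1.02, which passed the threshold (limma adjusted p = 0.0241 with the block and 0.0106 in the 5 arrays). Rab5b varied widely within both populations and was not called (1.31, 95% interval -0.46 to 3.09), though it was in the 5 arrays (1.96, limma adjusted p = 0.014), and Rab5c, Rab21, Rab4a and Rab4b were not called either (-0.91 to 0.37).

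Recycling endosome Rabs return receptors to the surface, and of 6 genes tested 2 were lower and 0 higher (all genes: 30.9% higher, 16.1% lower). Rab11a lay at 9.63, 10.05, 9.93 and 9.60 on the stromal arrays and at 12.54, 11.81 and 12.26 on the CD31+ arrays. It was 5.28-fold lower on the stromal arrays (difference -2.40, SE 0.229, limma adjusted p = 5.31e-05), with no overlap. Rab25, the epithelial Rab11 relative, was lower by 1.11 (6.04, 6.47, 6.42 and 6.19 on the stromal arrays, 7.35, 7.28 and 7.55 on the CD31+ arrays), at low signal in both. Rab11b (-0.51), Rab14 (0.78), Rab15 (-0.23) and Rab35 (-0.39) were not called with the probe set used. However, the other probe sets of Rab11b were called lower in a fit of all probe sets. They differed by -2.37 and -2.13 (limma adjusted p = 8.63e-05 and 0.000213). With probe sets averaged per gene, 3 of the 6 genes were lower.

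Late endosome and lysosome Rabs guide cargo to degradation and back to the Golgi. Of the 4 tested, 2 were higher and 0 lower (all genes: 30.9% higher, 16.1% lower). Rab9, which returns mannose 6-phosphate receptors to the trans-Golgi, lay at 12.47, 12.65, 12.82 and 12.66 on the stromal arrays and at 11, 11.35 and 10.51 on the CD31+ arrays. It was 3.25-fold higher (difference 1.70, adjusted p = 0.000381 in limma), with every stromal array above every CD31+ array. Rab24, linked to autophagy, was higher by 1.45 (8.79, 8.70, 8.55 and 8.22 on the stromal arrays, 6.97, 7.92 and 6.46 on the CD31+ arrays), and by 0.86 after cyclic loess, which ended the call. Rab7, the main late endosome Rab, lay at 11.14, 11.14, 11.01 and 11.57 on the stromal arrays and at 11.38, 11.28 and 11.50 on the CD31+ arrays. The arrays were interleaved (difference -0.17, 95% interval -0.61 to 0.27).

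The Rabs of the endoplasmic reticulum and Golgi included Rab34, the largest higher value in the fit of all 7 arrays. Of 16 genes 14 were tested, 3 were higher, 3 lower and 8 not called (all genes: 30.9% higher, 16.1% lower). This Golgi-associated Rab, also needed for primary cilia, lay at 11.46, 11.61, 11.54 and 11.24 on the stromal arrays and at 6.34, 5.53 and 5.84 on the CD31+ arrays. Every stromal array was at high signal and every CD31+ array near the 40th percentiles, a 47.2-fold higher level (difference 5.56, SE 0.227, limma adjusted p = 5.36e-07). Its second probe set gave 5.93.

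Rab33b, which acts in the Golgi and in autophagy, lay at 10.82, 11.36, 11.30 and 11.59 on the stromal arrays and at 8.75, 9.27 and 9.84 on the CD31+ arrays. It was 3.96-fold higher without overlap (difference 1.98, adjusted p = 0.000677 in limma). Rab19 was just past the required size (1.05). The lower ones were modest and did not overlap. Rab6b, of retrograde Golgi transport, was lower by 1.55 (9.19, 9.59, 9.33 and 9.58 on the stromal arrays, 10.85, 11.44 and 10.62 on the CD31+ arrays). Its ubiquitous paralogue Rab6a was lower by 1.22, and Rab36 by 1.25 (6.92, 6.96, 6.83 and 7 on the stromal arrays, 8.66, 7.89 and 8 on the CD31+ arrays). Rab1a and Rab1b, which start export from the endoplasmic reticulum, were not called, with differences of 0.70 and -0.82. Rab1b was called lower with the block (-1.06, limma adjusted p = 0.0171) and in the 5 arrays (0.0038).

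**Figure D3:**
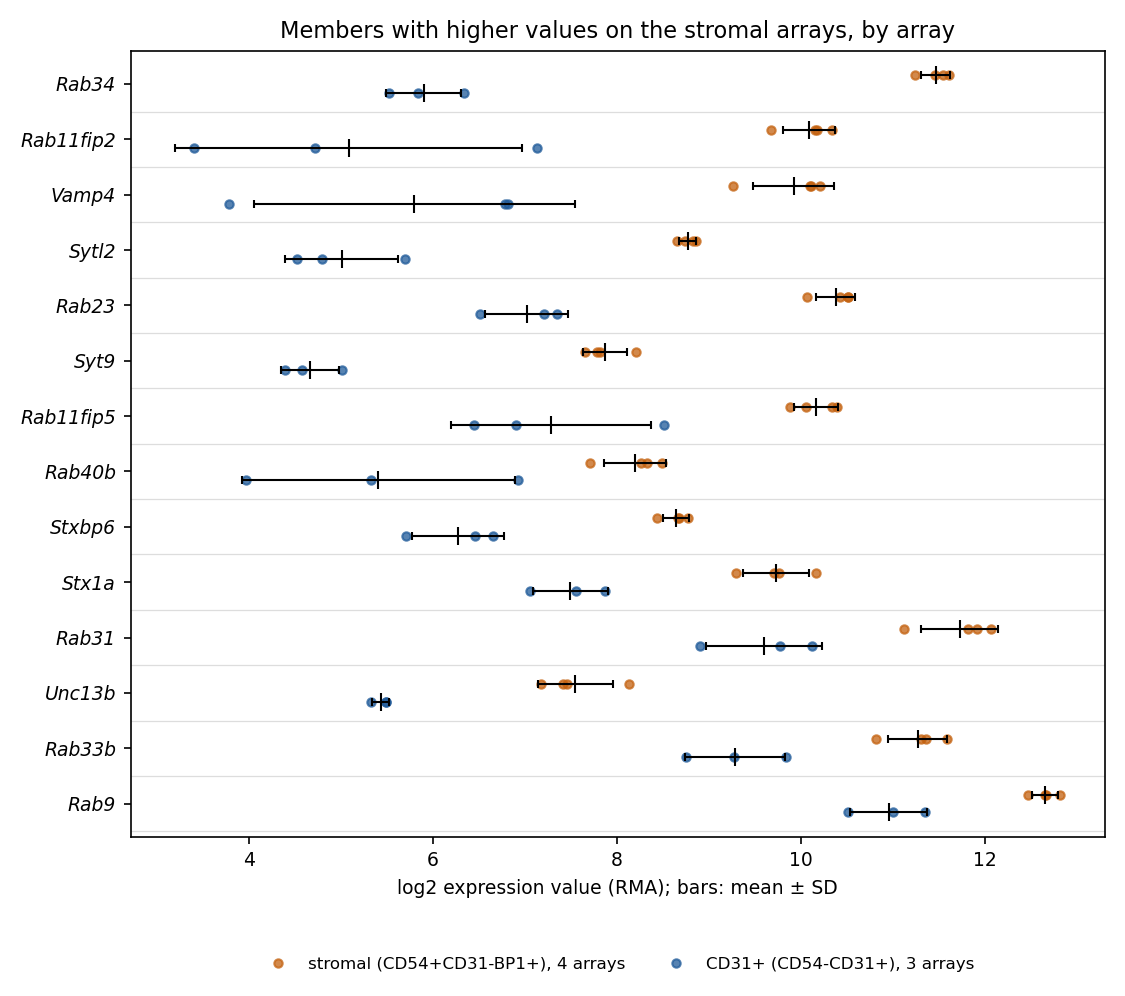
Log2 expression values, on each array, of genes that were called higher on the stromal arrays, with stromal arrays drawn above CD31+ arrays and the mean ± SD as a bar. Rab34 shows the widest separation (5.56), and Vamp4 and Rab11fip2 have wide bars on the CD31+ arrays.

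Among the other Rabs 5 of 7 were higher and 0 lower (all genes: 30.9% higher, 16.1% lower). Rab23, a Rab that restrains hedgehog signalling and acts at the cilium, lay at 10.42, 10.51, 10.07 and 10.51 on the stromal arrays and at 6.51, 7.21 and 7.35 on the CD31+ arrays. It was 10.2-fold higher with a wide gap (difference 3.36, SE 0.248, limma adjusted p = 1.21e-05). Leaving out probe sets with names ending in _s_at, _x_at or _a_at, among them the one used here, gave 1.98. The mean of its probe sets gave 2.00. Rab40b, of the Rab40 family that recruits ubiquitin ligases, lay at 7.71, 8.49, 8.33 and 8.26 on the stromal arrays and at 5.33, 6.93 and 3.97 on the CD31+ arrays. The CD31+ arrays were uneven and their mean was below the 40th percentiles (difference 2.79, adjusted p = 0.00426 in limma), with 1.04 for the mean of the probe sets. Rab20 (2.46, also from a CD31+ mean below the 40th percentiles), Rab40c (1.25) and Rab42 (1.37) were higher too.

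The regulators and effectors taken in by the symbol rule are the Rab11 family interacting proteins and the factors that act on Rab3 and Rab5. Of 9 tested, 4 were higher, 1 was lower and 4 were not called (all genes: 30.9% higher, 16.1% lower). Rab11fip5, an adaptor of Rab11 on recycling endosomes, lay at 9.88, 10.39, 10.06 and 10.34 on the stromal arrays and at 6.45, 8.51 and 6.90 on the CD31+ arrays. It was 7.35-fold higher (difference 2.88, adjusted p = 0.000883 in limma), and 1.69 higher by the mean of its probe sets. Rab11fip4 was lower by 1.13 (7.5, 7.80, 7.51 and 7.77 on the stromal arrays, 8.92, 8.33 and 9.07 on the CD31+ arrays). That value dropped below the required size without CD31+ 3 (-0.98) and with the mean of its probe sets (-0.91).

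Rab11fip2, a Rab11 adaptor that links to myosin Vb, showed how far a gene's probe sets can part. The probe set with the highest mean lay at 10.15, 10.18, 10.34 and 9.68 on the stromal arrays and at 4.72, 7.13 and 3.41 on the CD31+ arrays. It was higher on all stromal arrays (difference 5, adjusted p = 0.000667 in limma), with the CD31+ mean below the 40th percentiles. The other probe sets of Rab11fip2 differed by -0.46 and 0.35, and the mean of all by 1.63. Rab3gap1 (1.27) and Rab3il1 (1.01) were called higher with overlapping arrays for Rab3il1, and both lost the call under the hybridisation-control block (adjusted p = 0.0823 and 0.596 in limma).

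Probe sets parted for other genes as well. Of the 85 genes with more than 1 probe set, 15 had probe sets whose differences spanned over 2. Besides those described, Rab2a was the single gene with probe sets called in opposite directions, 1.64 and -1.26, while the probe set used gave -0.54 and was not called. Rab27b had probe sets at -6.28 and -4.82 beside the -6.74 used, and a dim one at -0.89. Rab27a had probe sets at -0.33, -0.74 and -1.14 beside the -2.56 used, all of them too dim to be tested.

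**Figure D4:**
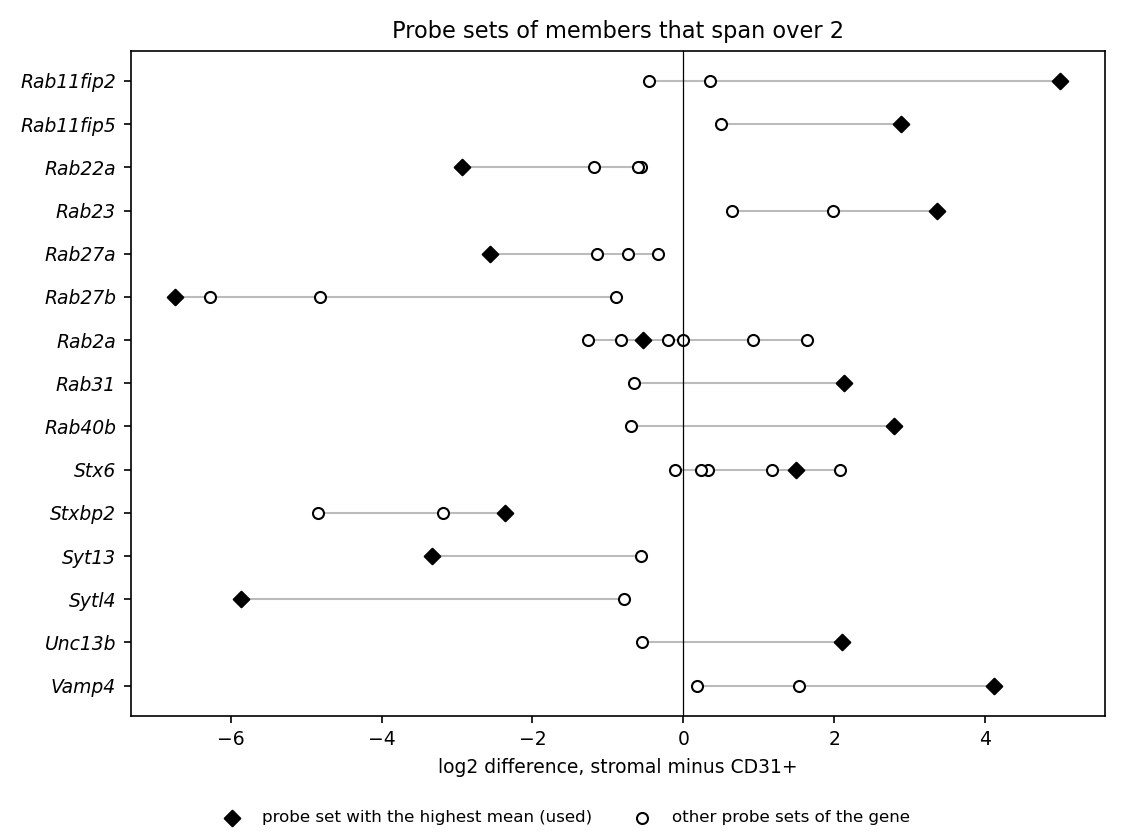
Log2 difference, stromal minus CD31+, of every probe set of the 15 genes whose probe sets span over 2. Each point is 1 probe set, and the probe set used for the gene is marked. Rab27b and Rab11fip2 have the widest spans, and Rab2a lies on both sides of 0.

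The 18 genes that were not tested had 2 arrays or fewer above the 40th percentile for the probe set used. A second, dimmer probe set of Syt17 passed the filter and differed by -1.1 in a fit of all probe sets (limma adjusted p = 0.00433), with 4.21, 4.54, 4.81 and 5.04 on the stromal arrays and 5.72, 5.71 and 5.83 on the CD31+ arrays. The 18 genes include the neuronal genes Snap25, Rab3c, Unc13a and Unc13c and 5 synaptotagmins (Syt2, Syt10, Syt14, Syt16 and Syt17), the Rabs Rab9b, Rab17, Rab33a, Rab39 and the effector Rab11fip1, Snap91, Stx19 and the antisense transcripts Rab11fip4os1 and Rab26os. Rab17 was the only one with 2 CD31+ arrays clearly above that level (4.50, 4.82, 4.93 and 4.83 on the stromal arrays, 5.50, 7.10 and 7.74 on the CD31+ arrays). Of the 55 genes called, 10 had 1 population's mean below the 40th percentiles, and 45 had signal in both, 23 higher and 22 lower. The antisense transcript Rab10os was called higher (1.16), but its arrays overlapped and CD31+ 1 alone gave 0.23.

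Partners of the machinery outside the symbol rule were called at shares near those of all genes. Of 132 genes listed 127 were on the array and 122 were tested, 35 higher (28.7%, against 30.9% of all genes), 16 lower (13.1%, against 16.1%) and 71 not called, with a median of 0.42. After the second quantile normalization 21 were higher and 26 lower, and after cyclic loess 23 and 22, so the balance of directions rested on the scaling. The genes below were named for their large differences, after their values were seen. Among the Rab exchange factors 5 of 24 were higher and 5 lower (8 lower under either rescaling). Dennd2c lay at 5.39, 5.88, 5.35 and 5.66 on the stromal arrays and at 10.86, 10.74 and 11.13 on the CD31+ arrays. It was near the 40th percentiles in stromal cells and far lower there (difference -5.34, limma adjusted p = 3.99e-07). Dennd5b differed by 4.65 and Rin2 by 3.26 in the other direction, both from CD31+ means below the 40th percentiles. Rin3 (-2.75) and Madd (-2.25), an exchange factor for Rab3 and Rab27, were lower.

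Of the 30 GTPase-activating proteins tested 5 were higher and 5 lower (2 and 8 with the second quantile step, 3 and 6 with cyclic loess), with Rabgap1l at -3.57 and Tbc1d2b at 2.90. Of 17 Rab effectors 7 were higher and 3 lower. Rilpl1, an effector of Rab8 and Rab10 at the cilium, lay at 10.16, 10.78, 10.90 and 10.47 on the stromal arrays and at 6.09, 6.44 and 6.30 on the CD31+ arrays. It was 19.7-fold higher with no overlap (difference 4.30, limma adjusted p = 1.84e-06). The golgin Gcc2 was also higher (2.99), and the dynein adaptor Bicd2 was lower (-2.31). In the exocyst, which tethers vesicles at the plasma membrane, 3 of 9 were higher and 2 lower, including Exoc6 at -3.31 and its paralogue Exoc6b at 1.45.

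Among the other SM proteins and the endosomal tethers HOPS and CORVET, Vps16 differed by 2.48 and Vps33a by 1.77, both from uneven CD31+ arrays. This list gave 6 higher and 0 lower of 13, where 30.9% of all genes were higher. With the hybridisation-control block 3 were higher and 0 lower, and under either rescaling 4 were higher and 1 lower. Among the SNAREs outside the symbol rule 2 of 12 were higher (Gosr1 and Sec22a, 2.60 and 2.20) and 0 lower. Of the disassembly factors and clamps 4 of 10 were higher, Nsf by 1.27 among them, and 1 was lower, Cplx3 by 1.17. That balance turned to 1 higher and 3 lower after the second quantile normalization and to 1 and 2 after cyclic loess, and was 2 and 2 with the block. Prenylation and GDI genes, which load Rabs onto membranes and retrieve them, gave 3 higher and 0 lower of 7, and none of them was called by limma under either rescaling or with the block.

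**Figure D5:**
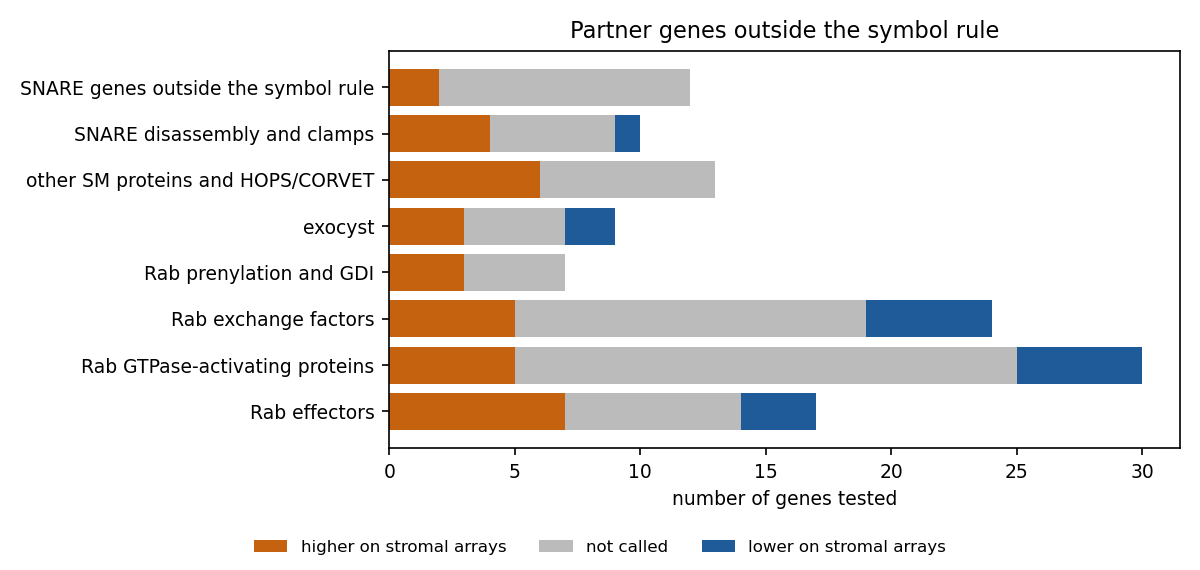
Number of partner genes tested in each of the 8 lists outside the symbol rule that were higher, not called or lower on the stromal arrays. Exchange factors and GTPase-activating proteins have equal numbers in each direction (5 and 5), and the list of SM proteins and tethers has 6 higher and 0 lower. The plot shows the deposited scaling only, and under either rescaling fewer genes are higher in the lists of SM proteins and tethers (4) and of disassembly factors and clamps (1).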

How the data were processed

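The deposited log2 values were made by the authors with Affymetrix Expression Console 1.1 by the RMA method, per the submitters' processing notes. RMA subtracts background, equalises the quantiles of the arrays and combines a probe set's probes into 1 value. The arrays that went into that step together are not given in the sources used here. Every one of the 7 columns entered the analysis, and none repeated another. Precision is limited by the number of arrays. Separate mice or sorts are not stated for the replicates, so a p reflects the spread between these samples alone, which may be technical.

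The brightest probe set over all arrays stood for each of the 18193 genes that have probe sets with a single platform symbol. Genes with 3 or more arrays over the array's own 40th percentile were tested, 13995 in all. The difference, stromal minus CD31+, came from limma 3.58.1 under R 4.3.3, with lmFit, eBayes and no covariate, and p-values were adjusted by Benjamini and Hochberg's method across these 13995 genes. A call required an adjusted p under 0.05 and an absolute log2 difference of at least 1. Folds are left out for genes with a population mean under the 40th percentile of its arrays. Fits on fewer arrays kept the probe sets and the filter of all 7.

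The members and lists were chosen with earlier results of these data known. Named genes were a set of well-known granule, endosome and SNARE genes, and from each role group for either direction up to 2 called genes of largest difference with no overlap between populations, and paralogues in a role group called in opposite directions, 49 in all. Besides the marker lists in the report, called lower on the stromal arrays were 4 of 6 endothelial, 7 of 10 neutrophil, 6 of 8 B lineage, 3 of 7 monocyte and macrophage (with 1 higher), 3 of 6 erythroid, 2 of 3 mast cell and basophil and 3 of 6 cytotoxic lymphocyte markers tested. Promoter windows came from RefSeq and were matched by Entrez identifier.

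As alternatives, the filter was dropped or set to the 60th percentile. Probe sets were averaged per gene, or those with names ending in _s_at, _x_at or _a_at were omitted. In further alternatives the values were rescaled by quantiles or cyclic loess, eBayes was run with trend and robust settings, and arrays were weighted. The size requirement was also dropped, and the replicate number or the hybridisation-control split was set as a block. Fits were also made on the 5 arrays of like control level, without stromal 4 and CD31+ 2, and without each array in turn. In a simulation of this comparison with 50 genes changed per size among 13995, 34 were recovered for a log2 change of 1.5, 34 for 2, 43 for 3 and 47 for 4. It called 165 genes, 7 of them unchanged. Few genes were changed in it, whereas 47% were called in the data, and its noise was drawn independently for each gene. Its recovery and its unchanged calls therefore need not hold for the data.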

Additional observations from a re-analysis of the deposited data

Results flagged for a closer look

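Among the 49 named genes, 2 had a stromal array that stood apart from the other 3. For Rab29, stromal 4 lay at 9.81 and the others between 9.67 and 9.69. For Vamp4, stromal 1 lay at 9.26 and the others between 10.10 and 10.21. Chance sets an array apart in this way in about 1 of 20 groups, and 9 of the 109 genes tested were set apart. The group of 3 CD31+ arrays is too small for this check.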

How the results depend on the processing

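Of the 40 named genes called, 30 kept their call under every alternative run for them, 10 lost it under at least 1, and none changed sign. Many of them were named for large differences without overlap in these same data. This count therefore does not show how stable the calls of the other genes are. The number of genes called of the 109 ranged from 51 to 55 without 1 array, with 25 to 28 higher and 25 to 30 lower and medians of -0.30 to -0.17. These totals hide changes in which genes were called. Only 18 of the 29 higher genes kept their call in every fit without 1 array, and 23 of the 26 lower ones. Cyclic loess left 18 called higher, and a second quantile normalization left 19. The median difference was -0.13 when probe sets were averaged per gene, -0.44 when quantiles were normalized again and -0.05 with the hybridisation-control block or the 5 arrays. Over all genes it was -0.27 without a filter, 0.56 at the 60th percentile, -0.12 with quantiles normalized again and -0.03 by cyclic loess, and adjusted p alone called 4412 lower. The 5 genes that changed sign were not called. Rab8a gave -0.12 with its probe sets averaged, -0.10 with quantiles normalized again and -0.09 by cyclic loess. Vamp2 gave -0.10 and -0.11, and Vamp7 gave -0.44 and -0.46, under these scalings. Without 1 array, Vamp7 ranged from -0.23 to 0.30, negative without stromal 2 (-0.07), stromal 3 (-0.05) or CD31+ 1 (-0.23). Stx3 gave 0.39 without stromal 4 and CD31+ 2, and from -1.34 (without CD31+ 3) to 0.23 (without CD31+ 2) without 1 array. Stx4a gave 0 with the block or the 5 arrays, and from -0.40 to 0.21 (without CD31+ 3) without 1 array. The cause of these shifts was not tested. Whether replicate numbers pair the samples is not stated. Deviations from the population means correlated at -0.002, 0.035 and 0.117 for same-numbered arrays. For arrays of different number the correlations ran from -0.084 to 0.058. With so few arrays these values cannot settle whether samples were paired. With the replicate number as a block 56 genes were called, 29 higher and 27 lower. With 4 and 3 arrays, dim probe sets and a range that ends near 14.82 limit the differences.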
